A study of Mus musculus with 8 samples.

Results

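Activity-induced immediate early genes are the genes whose transcription rises within minutes of neuronal firing or growth factor signalling, before any new protein is made. The 32 genes described here were taken by name from a count table of 46078 rows, where each had exactly 1 row, and all 32 were among the 15996 genes with enough reads to be tested. They were measured in poly(A) RNA of the hippocampus from 9-week-old C57BL/6J mice, in 4 libraries of wild type (WT) mice and 4 libraries of T29-1 Cre mice. T29-1 Cre mice are Cre+/- carriers of the transgene Tg(Camk2a-cre)T29-1Stl, in which the recombinase Cre is driven by the Camk2a promoter, active mainly in excitatory neurons of the forebrain, and the labels name no floxed allele in either group. No stimulus or treatment is named in the labels, and the levels below are those of tissue as collected, whose state of activity was not measured. Whether the 4 libraries of a genotype are 4 animals is not stated, so p-values measure only how these samples spread, and that spread may be technical.

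Calcium entry through NMDA receptors and voltage-gated channels activates the kinases of the CaMK and MAPK cascades, which phosphorylate factors already bound at the promoters of these genes, among them CREB at cAMP response elements and SRF with its ternary complex partners at CArG boxes. The first wave encodes mostly transcription factors (the FOS and JUN proteins that form AP-1, the zinc finger proteins EGR1 to EGR4, the orphan receptors of the NR4A family and NPAS4) together with the cytoskeletal protein ARC, which removes AMPA receptors from synapses. Later products act at the synapse or leave the cell, such as the pentraxin NPTX2, the activin subunit encoded by Inhba and the secreted peptide precursor VGF. In the hippocampus, Fos and Arc RNA are the standard marks of recently active cells.

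Promoter sequences are shown for Fos, Junb and Nr4a1, early genes that varied together, for Nr4a2, the member with the highest correlation with Fos, for the neuron-restricted Npas4, and for Egr2 and Dusp1, chosen with the values already seen because they hold a CArG box and a complete cAMP response element. RefSeq promoter sequences, on GRCm38.p6 and spanning 250 bases before to 50 after a transcription start, were matched by symbol for 24 of the 32 genes, with 30 starts in all. Capitals mark TGACG on either strand (CGTCA on the strand shown), the core of the cAMP response element, and in Egr2 also the CArG box.
Fos, chr12:85473640-85473939, plus strand: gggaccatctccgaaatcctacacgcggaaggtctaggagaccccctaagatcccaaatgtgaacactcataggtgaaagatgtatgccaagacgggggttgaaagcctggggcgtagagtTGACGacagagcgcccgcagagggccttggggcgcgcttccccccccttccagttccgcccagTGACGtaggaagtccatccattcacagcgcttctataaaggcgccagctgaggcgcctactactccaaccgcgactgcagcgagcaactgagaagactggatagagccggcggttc
Junb, chr8:84978699-84978998, minus strand: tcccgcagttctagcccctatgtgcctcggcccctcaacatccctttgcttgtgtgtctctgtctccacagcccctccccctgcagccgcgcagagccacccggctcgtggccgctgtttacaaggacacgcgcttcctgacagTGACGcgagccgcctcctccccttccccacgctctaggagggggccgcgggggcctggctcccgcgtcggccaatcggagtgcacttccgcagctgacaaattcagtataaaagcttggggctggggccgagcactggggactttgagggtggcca
Nr4a1, chr15:101266596-101266895, plus strand: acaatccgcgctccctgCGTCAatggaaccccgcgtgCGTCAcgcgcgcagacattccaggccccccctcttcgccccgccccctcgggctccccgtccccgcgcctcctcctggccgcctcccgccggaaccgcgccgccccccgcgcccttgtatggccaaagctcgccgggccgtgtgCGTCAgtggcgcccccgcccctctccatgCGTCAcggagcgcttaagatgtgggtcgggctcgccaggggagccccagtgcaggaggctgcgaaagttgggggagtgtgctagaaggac
Npas4, chr19:4989922-4990221, minus strand: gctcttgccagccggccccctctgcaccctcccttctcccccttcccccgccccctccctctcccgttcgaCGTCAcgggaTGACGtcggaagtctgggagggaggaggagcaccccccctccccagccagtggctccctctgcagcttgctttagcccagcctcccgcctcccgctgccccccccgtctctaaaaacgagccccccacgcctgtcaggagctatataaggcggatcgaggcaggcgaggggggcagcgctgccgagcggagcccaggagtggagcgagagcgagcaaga
Nr4a2, chr2:57123954-57124253, minus strand: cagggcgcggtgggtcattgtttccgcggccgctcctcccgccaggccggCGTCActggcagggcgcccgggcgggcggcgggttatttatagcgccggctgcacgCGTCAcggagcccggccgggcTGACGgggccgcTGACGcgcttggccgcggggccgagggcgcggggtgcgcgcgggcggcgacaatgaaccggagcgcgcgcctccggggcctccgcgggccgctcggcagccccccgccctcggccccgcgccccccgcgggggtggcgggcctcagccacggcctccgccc
Egr2, chr10:67537619-67537918, plus strand: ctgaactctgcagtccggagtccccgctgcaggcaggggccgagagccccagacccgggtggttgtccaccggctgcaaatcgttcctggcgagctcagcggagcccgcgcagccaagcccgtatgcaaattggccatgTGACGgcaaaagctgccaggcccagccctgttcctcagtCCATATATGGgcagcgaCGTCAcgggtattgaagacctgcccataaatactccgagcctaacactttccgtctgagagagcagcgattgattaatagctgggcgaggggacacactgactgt
Dusp1, chr17:26508423-26508722, minus strand: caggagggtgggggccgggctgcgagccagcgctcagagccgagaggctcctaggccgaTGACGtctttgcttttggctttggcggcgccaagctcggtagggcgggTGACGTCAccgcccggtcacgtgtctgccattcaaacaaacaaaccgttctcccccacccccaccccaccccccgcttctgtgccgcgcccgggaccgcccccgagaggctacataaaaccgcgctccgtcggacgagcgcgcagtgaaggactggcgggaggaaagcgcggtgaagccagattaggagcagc

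The promoter of Fos held TGACG 129 and 66 bases before the start, and that of Junb held it 106 bases before the start. In Egr2 the CArG box CCATATATGG lay 72 bases before the start, between 2 TGACG matches. TGACG was found on either strand in 16 of the 24 matched genes (66.7%) and in 6228 of all 27025 genes with a RefSeq promoter (23.0%). The complete element TGACGTCA, each copy of which holds TGACG on both strands, was found in Btg2, Dusp1 and Maff, 3 of 24 (12.5%), against 2.03% of all genes. A CArG box was found in Dusp5 and Egr2, 2 of 24 (8.33%), against 1.81% of all genes, and the AP-1 motif TGANTCA in 0 of 24, against 8.97%. These are counts of letters within 300 bases, with several overlapping starts for some genes, and they do not show binding. Both strands were searched for each motif.

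The libraries held 23358289 to 30882631 counts in total. On the first principal component (26.1% of the variance) WT replicate 4 was at 33.4 and the remaining libraries were at -8.74 to 0.69, so the main values are also given without it. Defining markers of hippocampus were present: the excitatory neuron genes Slc17a7, Neurod6 and Camk2a summed to 6274 to 6668 CPM (read counts scaled to library size, after TMM correction) in WT and 5995 to 6655 CPM in T29-1 Cre, and dentate granule cell genes to 275 to 294 and 231 to 338 CPM. Microglial genes summed to 119 to 122 and 111 to 124 CPM and endothelial genes to 87.8 to 110 and 90.7 to 127 CPM. Choroid plexus genes summed to 21.3 to 26.2 CPM in WT and 24.1 to 49.7 CPM in T29-1 Cre. Of these genes, Kl was at 19.8 to 22.5 CPM over the libraries and Folr1 at 0.397 CPM or less. Ttr ran from 1.08 to 26.9 CPM. In bulk tissue, fewer cells of a type and less RNA per cell cannot be told apart.

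In this tissue as collected, the members covered almost the whole range of expression. Per kilobase of exon, which is the scale on which genes can be compared, they ran from 0.336 CPM per kb for Maff, a small MAF factor at the 9.32nd percentile of tested genes, to 101 CPM per kb for Vgf at the 98.1st. After Vgf came Arc with 67.9, Junb with 45.9, Jun with 43.7 and Egr1 with 39.7 CPM per kb, at the 92.8th to 96.5th percentile. Fos itself, with 9.86 CPM per kb, was at the 69.6th percentile and Npas4, with 3.25, at the 42.4th. Beside Maff, the lowest levels per kilobase were those of Inhba (0.664), Egr2 (1.52), Klf4 (1.70) and Fosb (2.20). Within the FOS family the order was thus Fos, Fosl2 (8.34) and Fosb, and within the EGR family Egr1, Egr4 (25.7), Egr3 (15.04) and Egr2.

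No member was called between the genotypes. By edgeR's quasi-likelihood test 0 of 32 passed an adjusted p of 0.05, where 1 of 15996 tested genes (0.00625%) did, and each member had an adjusted p of at least 0.998. At an unadjusted p under 0.05 there was 1 member, Dusp1, which is 3.13% of them, against 2.43% of all tested genes. DESeq2 also called 0 members, with 1 at an unadjusted p under 0.05, and limma-voom called 0, with 0. Of the 32 genes, 21 had a higher and 11 a lower value in T29-1 Cre, and the median log2 fold change was 0.01, beside -0.00 over all tested genes. The libraries of the genotypes overlapped for each of the 32, whereas they did not overlap for 1.81% of all tested genes. The log2 fold changes ran from -0.18 for Klf4 to 0.26 for Npas4. Without WT replicate 4, 0 members were called and 2 had an unadjusted p under 0.05, Dusp1 and Gadd45b, as did 2.87% of all genes tested in that fit.

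**Figure D1:**
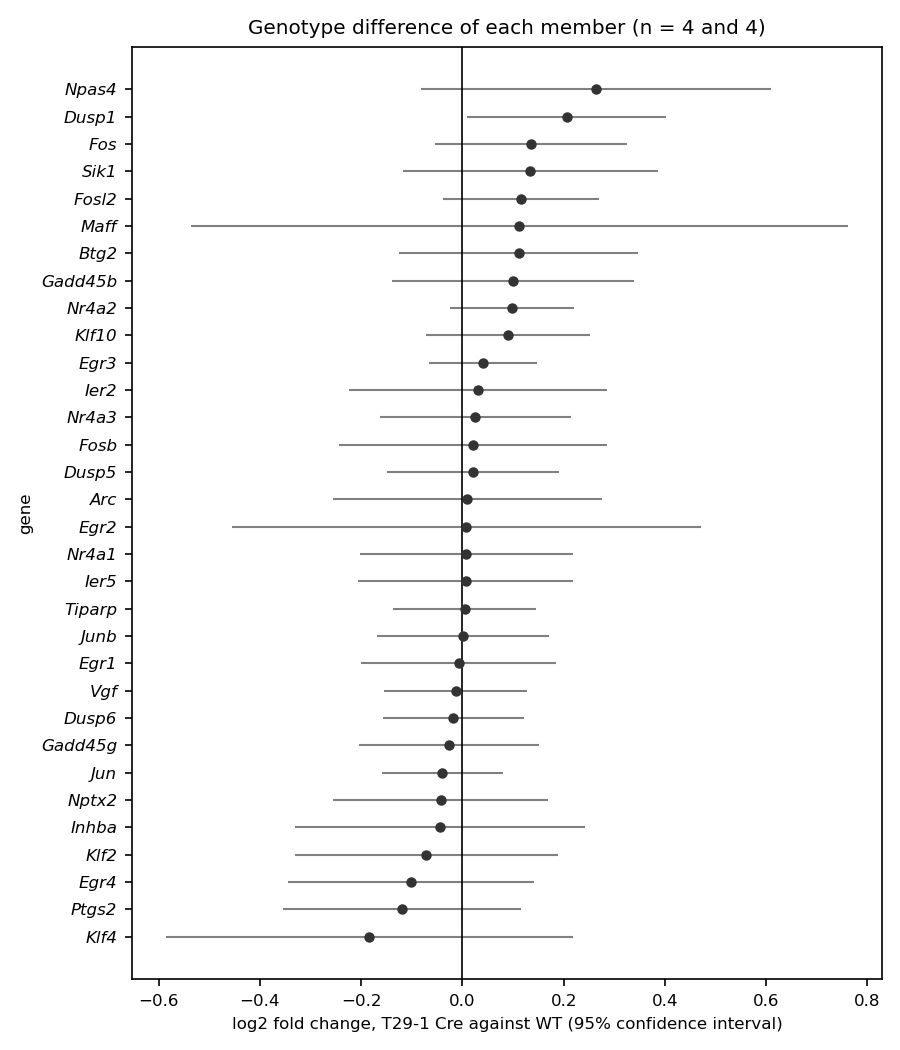
Log2 fold change of each of the 32 genes in T29-1 Cre against WT (x axis) with its 95% confidence interval, from 4 libraries per genotype. The values run from -0.18 for Klf4 to 0.26 for Npas4, and the interval includes 0 for each gene except Dusp1, whose lower limit is 0.01.

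Of the 5 AP-1 genes, 4 had a higher and 1 a lower value in T29-1 Cre, and 0 were called. Fos was at 21.6, 25.4, 19.4 and 22.1 CPM in WT replicates 1 to 4 and at 25.4, 24.3, 26.3 and 21.0 CPM in T29-1 Cre replicates 1 to 4. WT replicate 3 was the lowest and T29-1 Cre replicate 3 the highest library, and T29-1 Cre replicate 4 lay below WT replicates 1, 2 and 4. The log2 fold change of Fos was 0.14 (SE 0.088, 95% interval -0.05 to 0.32), and the exact two-sided permutation test gave p = 0.314, where the smallest possible value is 0.0286. Junb, a JUN protein of the first wave, was at 98.2, 111, 95.1 and 118 CPM in WT and at 110, 103, 116 and 92.9 CPM in T29-1 Cre. Its log2 fold change was 0.00 (SE 0.0791). Jun, which is regulated by stress kinases as well as by activity, was steadier, at 129, 137, 143 and 155 CPM in WT and at 133, 136, 139 and 141 CPM in T29-1 Cre. Fosl2, a FOS relative, was at 71.9, 86.0, 71.7 and 80.7 CPM in WT and at 84.7, 89.4, 74.3 and 87.6 CPM in T29-1 Cre (log2 fold change 0.12, SE 0.0717, exact permutation p = 0.200). Fosb ranged from 10.1 to 15.9 CPM over the libraries, both extremes being in WT.

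Among the EGR genes, Egr1, also known as Zif268 and needed to maintain long-term potentiation, was at 172, 212, 149 and 180 CPM in WT and at 187, 182, 185 and 156 CPM in T29-1 Cre. Its low libraries were WT replicate 3 and T29-1 Cre replicate 4, the same as for Arc below. The means were 178 ± 25.9 and 177 ± 14.4 CPM (SD, n = 4 each), and the log2 fold change was -0.01 (SE 0.0894). Egr4 was at 46.7, 68.2, 47.6 and 66.5 CPM in WT, which is a pair of low and a pair of high libraries, and at 54.2, 55.2, 56.0 and 47.7 CPM in T29-1 Cre. Egr2, the least abundant of the family, was at 4.38, 6.33, 3.53 and 6.48 CPM in WT and at 5.14, 6.54, 5.74 and 3.30 CPM in T29-1 Cre, whereas Egr3 was at 67.7, 68.2, 62.4 and 63.0 CPM and at 66.4, 67.6, 69.6 and 65.1 CPM. The 95% interval of the fold change was 0.955 to 1.11 for Egr3 and 0.730 to 1.39 for Egr2.

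The NR4A receptors, nuclear receptors that are active without a bound ligand, did not move as a family. Nr4a1 was at 97.4, 115, 84.1 and 105 CPM in WT and at 113, 105, 103 and 83.0 CPM in T29-1 Cre, so that WT replicate 3 and T29-1 Cre replicate 4 were again lowest. Nr4a3 had its highest values in those same libraries, at 123, 125, 135 and 117 CPM in WT and at 111, 134, 113 and 151 CPM in T29-1 Cre. Nr4a2 was at 67.3, 76.4, 69.2 and 69.1 CPM in WT and at 75.5, 73.5, 81.6 and 71.1 CPM in T29-1 Cre, with a log2 fold change of 0.10 (SE 0.0574, exact permutation p = 0.171). Over the 8 libraries the correlation of Nr4a1 was 0.50 with Nr4a2 and -0.72 with Nr4a3.

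Of the other transcription factors, Npas4, which is induced by calcium in neurons and controls inhibitory synapses, was at 14.97, 12.5, 10.2 and 11.3 CPM in WT and at 13.9, 15.4, 19.1 and 10.2 CPM in T29-1 Cre. The highest library was T29-1 Cre replicate 3 and the lowest WT replicate 3 and T29-1 Cre replicate 4, and the groups overlapped. Its log2 fold change of 0.26 (SE 0.161, 95% interval -0.08 to 0.61, exact permutation p = 0.286) was the largest of all members in the full data. It rested on single libraries, with a value of 0.10 without T29-1 Cre replicate 3, below those of Dusp1 (0.20), Sik1 (0.20) and Fosl2 (0.17), and of 0.40 without T29-1 Cre replicate 4. Klf10, a target of TGF-beta signalling, was at 29.7, 37.2, 30.5 and 33.5 CPM in WT and at 34.7, 33.6, 32.6 and 38.2 CPM in T29-1 Cre. Klf2, known mainly as a factor of endothelium, was at 10.9, 13.5, 10.3 and 14.4 CPM and at 11.5, 14.0, 10.98 and 10.2 CPM. Klf4 was at 5.54, 6.13, 3.69 and 6.77 CPM in WT and at 6.23, 5.07, 4.15 and 3.90 CPM in T29-1 Cre (log2 fold change -0.18, SE 0.187). Maff rested on 14 to 34 reads per library and was at 0.786, 0.605, 0.685 and 1.30 CPM in WT and at 0.907, 0.946, 1.23 and 0.525 CPM in T29-1 Cre. For Klf2, Klf4 and Maff the range of one genotype lay within or across that of the other, and the intervals of their fold changes included no change.

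The feedback genes end or shape the response: DUSP1, DUSP5 and DUSP6 are phosphatases that switch off MAP kinases, SIK1 restrains the CREB coactivators, and BTG2 promotes decay of messenger RNA. Dusp1 was at 23.2, 22.1, 20.5 and 23.4 CPM in WT and at 31.0, 23.6, 25.9 and 22.2 CPM in T29-1 Cre. All T29-1 Cre libraries but replicate 4 lay above all WT libraries, with replicate 1 the highest. The log2 fold change was 0.21 (SE 0.0919, 95% interval 0.01 to 0.40), with an edgeR quasi-likelihood p of 0.0424 and an adjusted p of 0.998. Without T29-1 Cre replicate 1 the log2 fold change of Dusp1 was 0.10, with an unadjusted edgeR p of 0.203. The exact permutation test of Dusp1 gave p = 0.114. The annotated span of Dusp1 overlaps AC122252.4 and AC122252.1 on the same strand and Gm8225 and Ergic1 on the opposite strand. Only whole spans were compared and not exons, so whether the reads of Dusp1 are affected is not known. The spans of Jun, Junb, Dusp5, Tiparp and Inhba overlap a gene on the opposite strand. Their reads could be uncertain if exons are shared and counting ignored strand, neither of which is known. Dusp6, with 69.1, 78.2, 66.2 and 64.9 CPM in WT and at 70.6, 72.7, 63.5 and 68.2 CPM in T29-1 Cre, had a log2 fold change of -0.02 (SE 0.0647). Ier5, an immediate early gene linked to the heat shock response, was at 54.3, 66.4, 54.5 and 67.3 CPM in WT and at 68.5, 62.2, 63.9 and 48.8 CPM in T29-1 Cre. Tiparp, a mono-ADP-ribosyltransferase, varied little, at 20.1, 22.6, 21.97 and 21.6 CPM in WT and at 21.2, 22.4, 20.002 and 23.1 CPM in T29-1 Cre. Dusp5, Sik1, Btg2, Gadd45b, Gadd45g and Ier2 lay between 7.78 and 40.2 CPM, with log2 fold changes from -0.03 for Gadd45g to 0.13 for Sik1.

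Among the effectors, Arc was the most variable of the abundant genes, at 180, 251, 163 and 233 CPM in WT and at 234, 216, 213 and 170 CPM in T29-1 Cre. WT replicates 2 and 4 were high and WT replicates 1 and 3 low, and of the T29-1 Cre libraries only replicate 4 was low. The means were 207 ± 41.9 and 208 ± 27.0 CPM (SD, n = 4 each), and the log2 fold change was 0.01 (SE 0.124), with a 95% interval of the fold change from 0.838 to 1.21. Nptx2, which gathers AMPA receptors on interneurons, was at 47.9, 43.8, 32.4 and 38.4 CPM in WT and at 40.8, 42.0, 35.6 and 39.1 CPM in T29-1 Cre. Vgf was at 290.0, 301, 284 and 335 CPM in WT and at 305, 317, 265 and 312 CPM in T29-1 Cre. Ptgs2, which encodes the inducible cyclooxygenase COX-2, was at 30.9, 22.7, 25.9 and 23.2 CPM in WT and at 20.9, 25.4, 20.8 and 27.7 CPM in T29-1 Cre, and Inhba was at 3.22 to 4.83 CPM. The 5 effectors had log2 fold changes from -0.12 for Ptgs2 to 0.01 for Arc. In the authors' deposited table all 32 genes were listed, Dusp1 had the lowest p-value (0.0306), and the log2 fold changes of the authors' deposited table were positive for 21 of them.

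**Figure D2:**
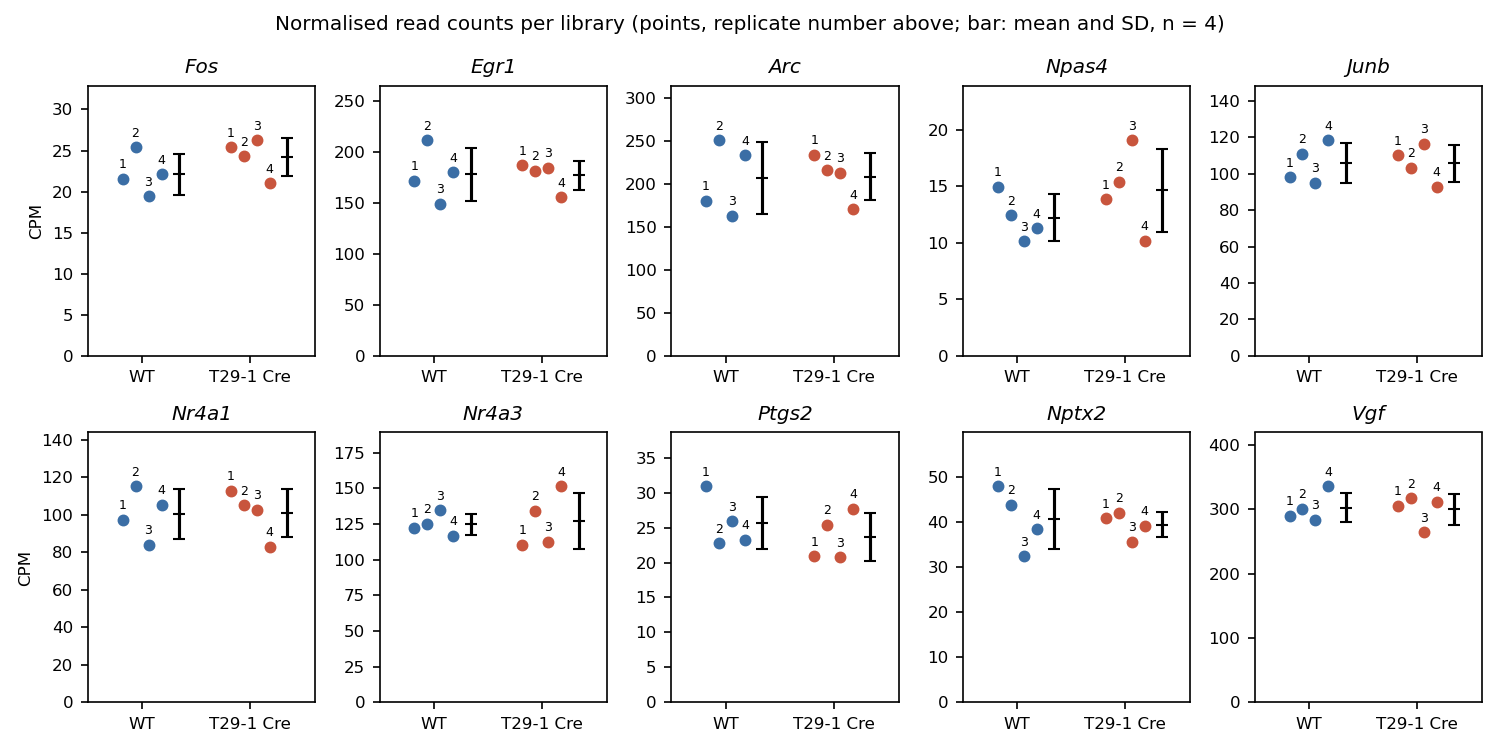
Normalised read counts (CPM, y axis from 0) of 10 genes in each library, with WT in blue, T29-1 Cre in red, replicate numbers above the points, and the mean and SD of 4 libraries as black bars. Arc, Egr1 and Nr4a1 are low in WT replicate 3 and T29-1 Cre replicate 4, where Nr4a3 is highest in its genotype at 135 and 151 CPM.

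The members varied more between libraries of the same genotype than the typical tested gene. The pooled within-genotype SD of log2 CPM had a median of 0.186 over the 32 members and of 0.120 over all tested genes. Among genes averaging 5 CPM or more, the median SD from counting alone was 0.0470, beside 0.0643 over all tested genes. There the median SDs were 0.179 for 30 members and 0.0951 for 11502 genes, and 26 of the 30 lay above the latter. In that set 15 of the 30 members were in the top decile by SD. The SD was more than 2 times what counting alone gives for 27 of 30 members and for 46.9% of all genes at that level. These are descriptions with no test.

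The spread differed between members and did not follow level alone, although no comparison at matched level was made. Arc had an SD of 0.252, at the 97.6th percentile in this set and 12.8 times the counting SD of 0.0196, and its highest library was 1.54 times its lowest. Vgf, more abundant still, had an SD of 0.113 (63.9th percentile). Maff (0.456), Egr2 (0.421), Klf4 (0.342) and Npas4 (0.313) had the largest SDs, with counting SDs of 0.302, 0.125, 0.124 and 0.0769, so that counting error makes up much of the spread of Maff and little of that of Npas4. The steadiest members were Egr3 (0.0559), Jun (0.0819) and Tiparp (0.0821), at the 14.8th, 37.9th and 38.0th percentiles. Egr2 and Egr3, relatives with the same DNA-binding preference, thus stood at opposite ends, although Egr2 also had the fewer reads. By role, the median SD was 0.144 for the AP-1 genes, 0.197 for the EGR genes, 0.164 for the NR4A genes, 0.313 for the other transcription factors, 0.176 for the feedback genes and 0.188 for the effectors.

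**Figure D3:**
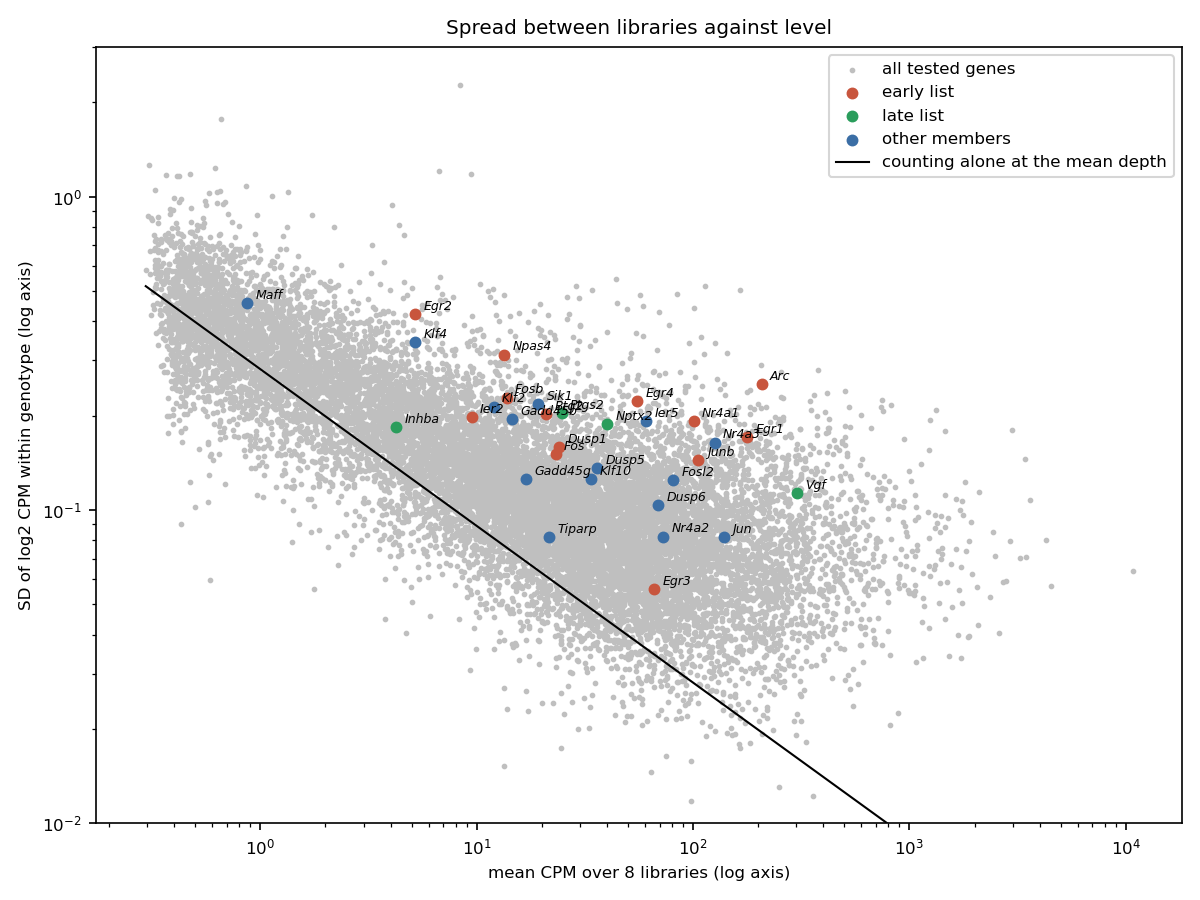
Pooled SD of log2 CPM within genotype (y, log axis) against mean CPM over 8 libraries (x, log axis) for all 15996 tested genes (grey) and the 32 members (coloured by list), with the SD from counting alone at the mean depth as a line. Arc, at an SD of 0.252, and Egr4, at 0.223, are at the 97.6th and 95.8th percentiles of genes averaging 5 CPM or more. Egr3, at 0.0559, lies near the line.

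Part of this spread moved together across libraries. Over all 32 members, 368 of 496 pairs had a positive Pearson correlation over the 8 libraries. The median was 0.31, and 11.9% of pairs were above 0.7. An early list held 13 genes of the first wave (Fos, Fosb, Junb, Egr1 to Egr4, Arc, Nr4a1, Npas4, Ier2, Dusp1 and Btg2). A late list held 4 genes of the later response (Nptx2, Ptgs2, Inhba and Vgf). The lists followed textbook timing, which differs between cell types, but were chosen with earlier results of these data known. Of the AP-1 and NR4A genes, Fosl2, Jun, Nr4a2 and Nr4a3 were put in neither list. The early score of a library is the mean over the list of log2 CPM minus each gene's mean over the 8 libraries. It was -0.04, 0.13, -0.25 and 0.06 in WT replicates 1 to 4 and 0.11, 0.05, 0.15 and -0.20 in T29-1 Cre replicates 1 to 4. WT replicate 3 and T29-1 Cre replicate 4 were thus low by about the same amount, 1 in each genotype. In WT replicate 3, 13 of 13 early genes were below their mean, in T29-1 Cre replicate 4, 12 of 13, and in T29-1 Cre replicate 3, 0 of 13. WT replicate 3 held the lowest value of 13 of the 32 members and the highest of 0.

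**Figure D4:**
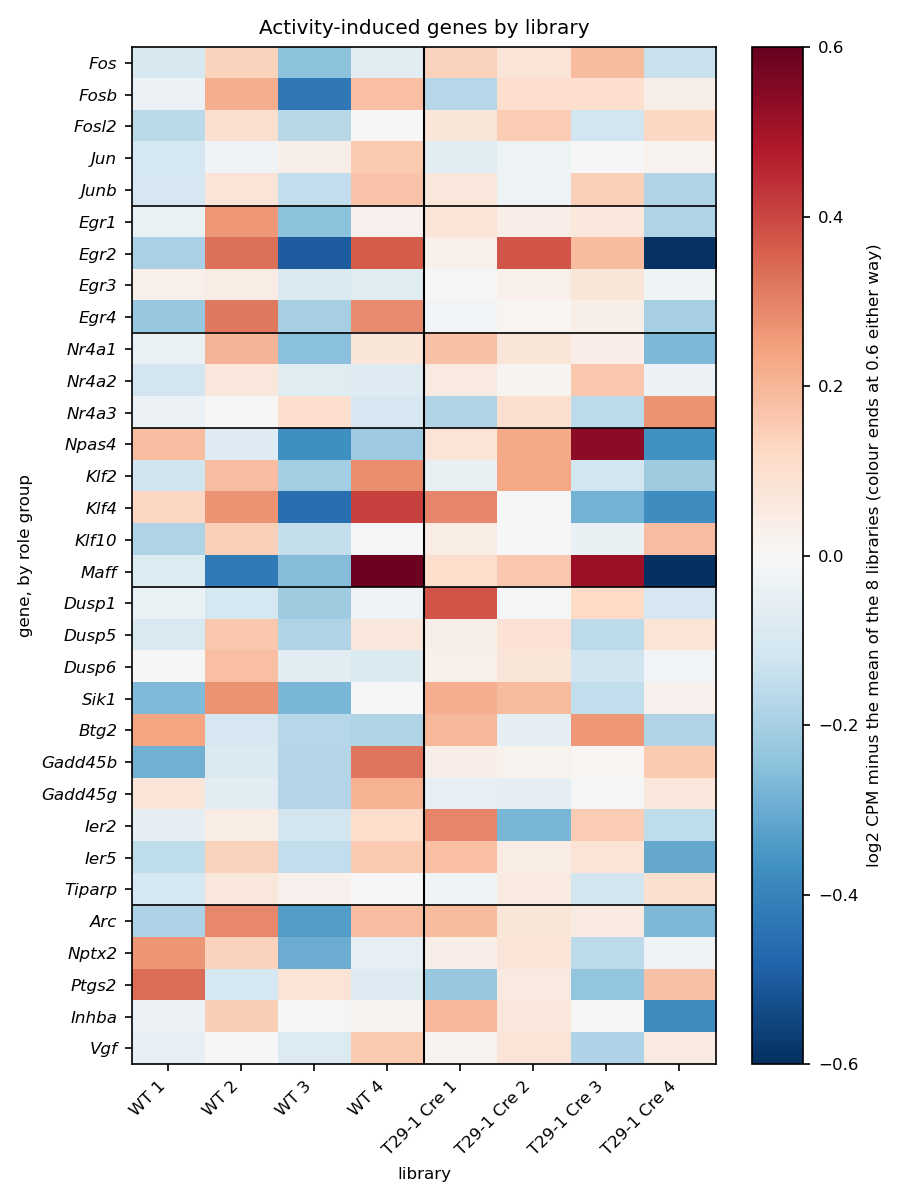
Log2 CPM of each member minus its mean over the 8 libraries (colour, ending at 0.6 in either direction), with genes in rows by role group and libraries in columns, WT left of the black line. WT replicate 3 is below the mean for 28 of 32 genes and T29-1 Cre replicate 4 for 20 of 32.

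Between the 13 early genes, 76 of 78 pairs had a positive Pearson correlation over the 8 libraries, with a median of 0.54, and 26 pairs (33.3%) were above 0.7. Between early genes and all tested genes that are no members the median was 0.02, and 2.91% of pairs were above 0.7. All members share the same 8 libraries, their depth and their scaling, and the early list was chosen with earlier results known. These values are therefore descriptions. Arc, Egr1 and Nr4a1 were the closest, with correlations of 0.95 (Arc with Nr4a1), 0.95 (Egr1 with Nr4a1) and 0.93 (Arc with Egr1). Without WT replicate 4 the early median was 0.64. Without the libraries farthest from the median early score, WT replicate 3 and T29-1 Cre replicate 4, it was 0.26. Then 50 of 78 pairs were positive and 11 pairs (14.1%) were above 0.7, beside 6.74% for other genes. These libraries were chosen by the score of the same genes, and leaving out extremes of a score lowers such correlations. The fall therefore does not measure how far the shared movement rests on them. With values centred on each genotype's mean it was 0.56.

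Other quantities were set beside the early score over the same libraries. In T29-1 Cre replicate 4 the markers of dentate granule cells and CA1 lay below their mean on the log2 scale (-0.305 and -0.322) and those of CA3 above it (0.497). In WT replicate 3, whose early score was as low, they were at 0.07, 0.04 and -0.02. The CA1 markers were only Wfs1 and Fibcd1, whose highest libraries were 1.94 and 1.12 times their lowest. Those of CA3 were only Bok and Iyd, the latter at 2.68 to 6.52 CPM. The correlation of the early score with the excitatory neuron markers was -0.75 (-0.77 without WT replicate 4). On the log2 scale these markers ran from -0.104 in T29-1 Cre replicate 1 to 0.0865 in T29-1 Cre replicate 4 around their mean. The correlation of the early score was 0.47 with dentate granule cell, 0.56 with CA1, -0.51 with CA3 and -0.004 with interneuron markers. It was 0.18 with astrocyte, -0.20 with oligodendrocyte, -0.06 with microglial and 0.23 with endothelial markers. With choroid plexus, ependyma and blood markers it was 0.21, -0.41 and 0.19, and with the total count of the library -0.66. Without WT replicate 4 it was 0.56 with astrocyte, 0.43 with endothelial and -0.63 with CA3 markers. By rank, microglial (0.29) and endothelial (-0.07) markers had the opposite sign. The part of these quantities in the early score was not tested.

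Fos served as the reference gene for tests of single correlations, by exact permutation over all orders of the 8 libraries. Of 15995 other genes, 0 passed an adjusted p of 0.05 (0%), members included, and 573 (3.58%) had an unadjusted p under 0.05, of which 9 were members among 31. These 9 were Nr4a2, Egr1, Nr4a1, Arc, Egr3, Ier5, Egr2, Npas4 and, with a negative correlation, Ptgs2. By rank correlation 0 genes passed as well, with 691 genes and 6 members at an unadjusted p under 0.05. For Egr1, Pearson's r was 0.86 (exact permutation p = 0.00325, adjusted p = 1.00) and Spearman's rho 0.93 (exact permutation p = 0.00223), and r was 0.85 without T29-1 Cre replicate 3 and WT replicate 3, the libraries farthest from the median of Fos. For Nr4a2, r was 0.86 (exact permutation p = 0.00709, adjusted p = 1.00) and rho 0.81 (exact permutation p = 0.0218), and r was 0.89 without those libraries. For Arc, r was 0.81 (exact permutation p = 0.0227, adjusted p = 1.00) and rho 0.74 (exact permutation p = 0.0458), and r was 0.81 without them. Of the other 5, r without those libraries was 0.86 for Nr4a1, 0.77 for Ier5, 0.64 for Egr2, 0.50 for Egr3 and 0.44 for Npas4, beside 0.83, 0.74, 0.74, 0.78 and 0.73 over all 8. Without WT replicate 4 alone, r was 0.88 for Egr1, 0.87 for Nr4a2 and 0.92 for Arc. Ptgs2 went the other way, with an r of -0.72 (exact permutation p = 0.046, adjusted p = 1.00), a rho of -0.86 (exact permutation p = 0.0107) and an r of -0.76 without them. The correlations of Fos with Fosb (0.54), Btg2 (0.52) and Ier2 (0.50) had permutation p-values of 0.168, 0.159 and 0.205, and those with Jun (-0.29) and Vgf (-0.14) were negative.

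The late list did not form a group of its own. Its scores were 0.13, 0.05, -0.08 and 0.01 in WT replicates 1 to 4 and 0.01, 0.07, -0.14 and -0.04 in T29-1 Cre replicates 1 to 4. The 6 correlations between its genes ran from -0.57 (Ptgs2 with Inhba) to 0.34 (Nptx2 with Ptgs2), with a median of 0.14. Its score was related to the early score with an r of 0.13 and a rho of -0.07 over 8 libraries, and r ran from -0.16 without WT replicate 3 to 0.58 without T29-1 Cre replicate 3, so that no direction can be read from it. Single late genes stood in opposite relations to the early score: Inhba had an r of 0.68, Nptx2 of 0.36, Vgf of 0.01 and Ptgs2 of -0.69 (rho -0.88, and r of -0.96 without WT replicate 3 and T29-1 Cre replicate 4). Nptx2 changed sign, to -0.71, without those libraries. Inhba rested on 86 to 128 reads per library.

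Genes in neither list had varied relations to the early score, several of which changed when WT replicate 3 and T29-1 Cre replicate 4 were left out. Ier5 had an r of 0.87 and Nr4a2 of 0.67, and without those libraries these were 0.80 and 0.89. Nr4a3 had an r of -0.76, which was -0.42 without them. Klf4 (0.66) and Tiparp (-0.36) changed sign without them, to -0.20 and 0.20, as did Jun, from -0.11 to 0.26, and Gadd45g, from 0.19 to -0.43. Klf10 went from 0.17 to 0.72, Klf2 from 0.61 to 0.06 and Gadd45b from 0.21 to 0.40. A second set, picked out after the values were seen, was Sik1, Fosl2, Dusp5 and Klf10, whose 6 correlations ran from 0.77 (Sik1 with Klf10) to 0.91 (Sik1 with Fosl2). Dusp5 was also related to Vgf (0.76). Npas4 was closest to Egr3 (0.84) and Btg2 (0.83), and Btg2 was opposite to Tiparp (-0.86).

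**Figure D5:**
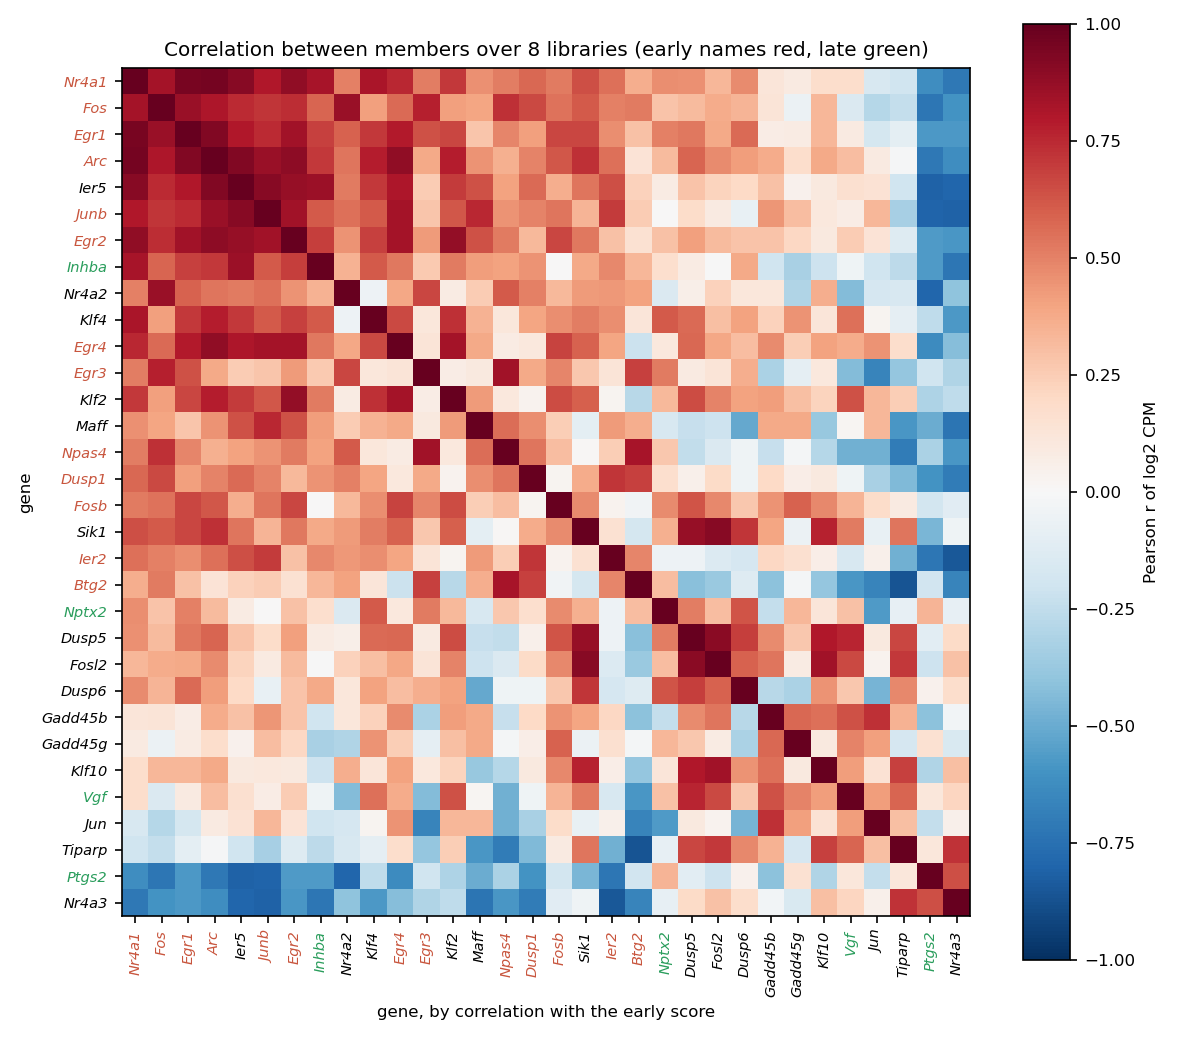
Pearson correlation of log2 CPM over 8 libraries between each pair of the 32 genes (colour), ordered by correlation with the early score, with early genes named in red and late genes in green. Nr4a1, Fos, Egr1, Arc, Ier5, Junb and Egr2 form the block at the top left, and Ptgs2 (-0.69) and Nr4a3 (-0.76) are at the other end.

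By mean correlation with the early genes, the 10 closest tested genes outside the list ran from 0.73 for Alyref, an mRNA export factor, to 0.71 for Stat6. Between them were Cplx3 (0.73), Scarb1, Pop4, Grm4, Barx2, l7Rn6, 2900079G21Rik and Iqgap3. They were picked as the highest of 15964 genes. Each of them exceeded the highest member, Fos, whose mean correlation with the other early genes was 0.69. High values over 8 libraries thus also occur outside the list, but because of that choice the comparison does not show how often. Of single pairs, 2.91% between early genes and non-members were above 0.7, beside 33.3% between early genes. The early list was itself chosen with earlier results of these data known. Cplx3 and Grm4 had SDs of 0.376 and 0.183, whereas Alyref, at 27.2 CPM, varied by an SD of only 0.0346. That is below the counting SD of 0.0485 of the more abundant Klf10 (33.7 CPM). Barx2 and Iqgap3 had few reads, at 0.698 and 0.689 CPM.

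Lists of other genes of the pathway gave 0 calls between the genotypes as well. Of 24 upstream regulators (CREB, SRF, MEF2 and their kinases and cofactors), 0 were called, 14 had a higher and 10 a lower value in T29-1 Cre, and the median log2 fold change was 0.01. Those with the smallest p were Camk4, a nuclear CaM kinase, at 0.14 (SE 0.0958), and Mef2c at 0.13 (SE 0.0921). Srf was at 84.5 ± 7.17 CPM in WT and at 85.3 ± 3.08 CPM in T29-1 Cre, and Creb1 at 52.0 ± 6.23 and 54.7 ± 1.96 CPM, as mean ± SD of 4 libraries. Of 25 other activity-induced genes 0 were called, 15 had a higher and 10 a lower value, and 1 had an unadjusted p under 0.05, the neurotrophin gene Bdnf. Its WT mean was 57.8 ± 3.85 CPM and its T29-1 Cre mean 53.0 ± 0.956 CPM (SD over 4 libraries). The log2 fold change of Bdnf was -0.12 (SE 0.0542), with an edgeR p of 0.039 and an adjusted p of 0.998. Next was Nfil3 at -0.19 (SE 0.0981). The median correlation with the early score was 0.04 for the upstream regulators, 14 of 24 being positive, and 0.43 for the other activity-induced genes, 20 of 25 being positive. Their median SDs were 0.0934 and 0.144, beside 0.120 for all tested genes and 0.0951 for those averaging 5 CPM or more.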

How the data were processed

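The authors deposited read counts per gene, whole numbers with no scaling, for 8 hippocampal libraries. Per the labels' protocols, poly(A) RNA from 500 ng of total RNA was made into directional libraries, pooled on a single lane and read as pairs of 150 bp. The submitters' processing notes name GRCm38, edgeR 3.11, featureCounts and STAR 2.6.1d. Annotation release and strand setting: not given in the sources used here. A log2 fold change and a p-value per gene come from the authors' deposited table of their comparison, and only these columns of it were used.

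Counts were filtered with filterByExpr (minimum count 10, minimum total 15), scaled by TMM and tested with edgeR 4.0.16 in R 4.3.3 (quasi-likelihood F test, no covariate, Benjamini-Hochberg over 15996 genes, adjusted p under 0.05). SE is the size of the log2 fold change over the square root of F. Log2 CPM used a prior count of 2. Exon lengths came from GENCODE M21 and matched 95.0% of tested genes by name. Counting SD is that of a Poisson count at the mean count. Intervals cover the spread between these libraries. DESeq2 1.42.0, limma-voom (limma 3.58.1), other scalings and filters, a replicate block and each library left out were alternatives. In data simulated on this comparison (200 genes changed, mean of at least 5 CPM), 99.5% of 1.5-fold changes were called over 15841 genes. The changed genes were drawn from all tested genes at that level, whose median SD of 0.0951 was below the members' 0.179. With 200 genes changed, the adjustment over all genes is also milder than where 1 gene is called. The share therefore does not tell how often such a change of a member would be called. Correlations were tested by exact permutation. The members, lists and tests were chosen with earlier results of these data known. Values per library are given for Fos, Arc, Egr1, Npas4, Nptx2, the 2 members of each role group highest per kilobase, those with the 5 largest and 3 smallest SDs and the 4 smallest p-values. Ptgs2 was added after its values were seen. Replicate libraries differed by more than counting noise (chi-square divided by degrees of freedom 3.33 to 19.2). Promoters of Arc and Egr1 are not shown.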

Additional observations from a re-analysis of the deposited data

Results flagged for a closer look

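In groups of 4 libraries, 34 measures (32 genes and the early and late scores) were screened in each genotype for a library far from the other 3, and 1 of 68 such groups had one; by chance about 1 in 20 would. It was Egr1 in T29-1 Cre replicate 4, at 7.29 log2 CPM (156 CPM) against 7.51 to 7.55 (182 to 187 CPM) in the other T29-1 Cre libraries. The gap was 0.838 of the range of the group, above Dixon's 95% critical value for 4 samples.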

How the results depend on the processing

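In the 15 alternatives 0 members were called, the median log2 fold change of the members stayed between -0.04 and 0.06, and the smallest adjusted p of any member was 0.892. The direction was the same in each alternative for 13 of 32 genes, and 6 moved by more than 1 SE in at least 1 of them. The number of members at an unadjusted p under 0.05, 1 in the report, was 0 with upper quartile scaling, 2 with no filter on low counts, 0 with limma-voom, and 0 to 5 with a library left out (5 without WT replicate 2, 0 without WT replicate 3 or T29-1 Cre replicate 1). The share of all tested genes at that p was 2.75% without WT replicate 2, 4.2% without WT replicate 3 and 2.26% without T29-1 Cre replicate 1. The genes called over the whole table were 2 with no filter and 2 with the replicate block. The cause was not tested.

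The median SD of the members was 0.146 to 0.192 with a library left out, the lowest without T29-1 Cre replicate 4 and 0.153 without WT replicate 3. The early and late scores had a correlation of -0.0714 by rank and of -0.156 (without WT replicate 3) to 0.582 (without T29-1 Cre replicate 3) with a library left out. The median correlation between early genes, 0.540, was 0.407 to 0.639 with a library left out and 0.261 without the 2 libraries farthest in early score, which leaves 6 libraries. The correlations with Fos gave 0 calls in each of 14 alternatives, with 446 to 1102 genes and 5 to 10 members at an unadjusted p under 0.05.

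Libraries with the same replicate number did not deviate together (correlations across genes of -0.0732, 0.0535, 0.0179 and -0.0345), so the numbers were not taken to pair them. The replicate block left 0 members called. Depth limits Maff (14 to 34 reads) and Inhba (86 to 128 reads).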
